A study of Mus musculus with 11 samples.

Results

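The genes described here are the ATP-binding cassette (ABC) genes on the array outside the Abcb1 multidrug pump genes and the sterol exporters Abca1 and Abcg1. They were taken by symbol, as every gene named Abca, Abcb, Abcc, Abcd, Abce, Abcf or Abcg plus a digit, without pseudogenes and without Abcb1a, Abcb1b, Abca1 and Abcg1. The rule gave 44 of the 22180 genes, each with 1 probe set: 15 of subfamily ABCA, 7 of ABCB, 10 of ABCC, 3 of ABCD, 1 of ABCE, 3 of ABCF and 5 of ABCG.

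ABC proteins share nucleotide-binding domains that bind and hydrolyse ATP. In most subfamilies these domains power membrane transport of lipids, peptides, metals, conjugates or drugs, and the ABCC pumps are known for carrying drugs and glutathione conjugates out of leukaemia cells. The ABCE and ABCF proteins lack membrane spans and work with the ribosome or in the cytosol, so the family reaches from drug export to translation.

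The RNA came from line 720, a cultured T-cell acute lymphoblastic leukaemia (T-ALL) of the mouse. It was raised from a Tcf12+/- mouse whose Tal1 transgene was driven by the Lck promoter, and every array shares that genotype and this 1 line. Cells were held for 8 h with 1 of 3 compounds labelled as Runt domain inhibitors, named for the DNA-binding domain of the RUNX transcription factors: AI-9-54 at 50 µM (4 arrays, replicates 1 to 4), AI-8-45 at 100 µM (4 arrays, replicates 1 to 4) or AI-7-54 at 100 µM (3 arrays, replicates 1, 3 and 4). The compounds are known here by code name, and every difference is between compounds, since no sample with vehicle alone was analysed here. AI-9-54 was given at another dose than the others, so compound and dose cannot be told apart in its comparisons. The comparisons of AI-9-54 and of AI-8-45 with AI-7-54 share the AI-7-54 arrays. The labels do not say that replicates were separate cultures, so the p-values measure only how far these arrays spread, and that spread may be technical.

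Levels are RMA values, on the log2 scale, with array medians of 6.61 to 6.68. Differences are log2 differences of group means from limma, and a gene was called at a Benjamini-Hochberg adjusted p under 0.05 over all 22180 genes. The 14 measured T-cell markers had a median level at percentile 95.1 of all genes. Their mean per array was 10.03 to 10.12 with AI-9-54, 10.17 to 10.29 with AI-8-45 and 10.27 to 10.39 with AI-7-54. Between AI-9-54 and AI-7-54, 6 of the 14 were called lower and 0 higher, against 7.29% and 6.87% of all genes. Among genes above the array median on all arrays, 25.3% were called either way in that comparison. Of the 14 markers, 1 was called lower between AI-8-45 and AI-7-54 (3.53% of all genes). Between AI-9-54 and AI-8-45, 2 of them were called lower (0.6% of all genes). None of the 6 B-lineage, 8 myeloid, 3 erythroid and 7 stromal and endothelial markers was called in any comparison. Whether the shift of the T-cell markers bears on the ABC differences was not tested. In bulk RNA, fewer cells of a kind and less RNA per cell cannot be told apart.

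**Figure D1:**
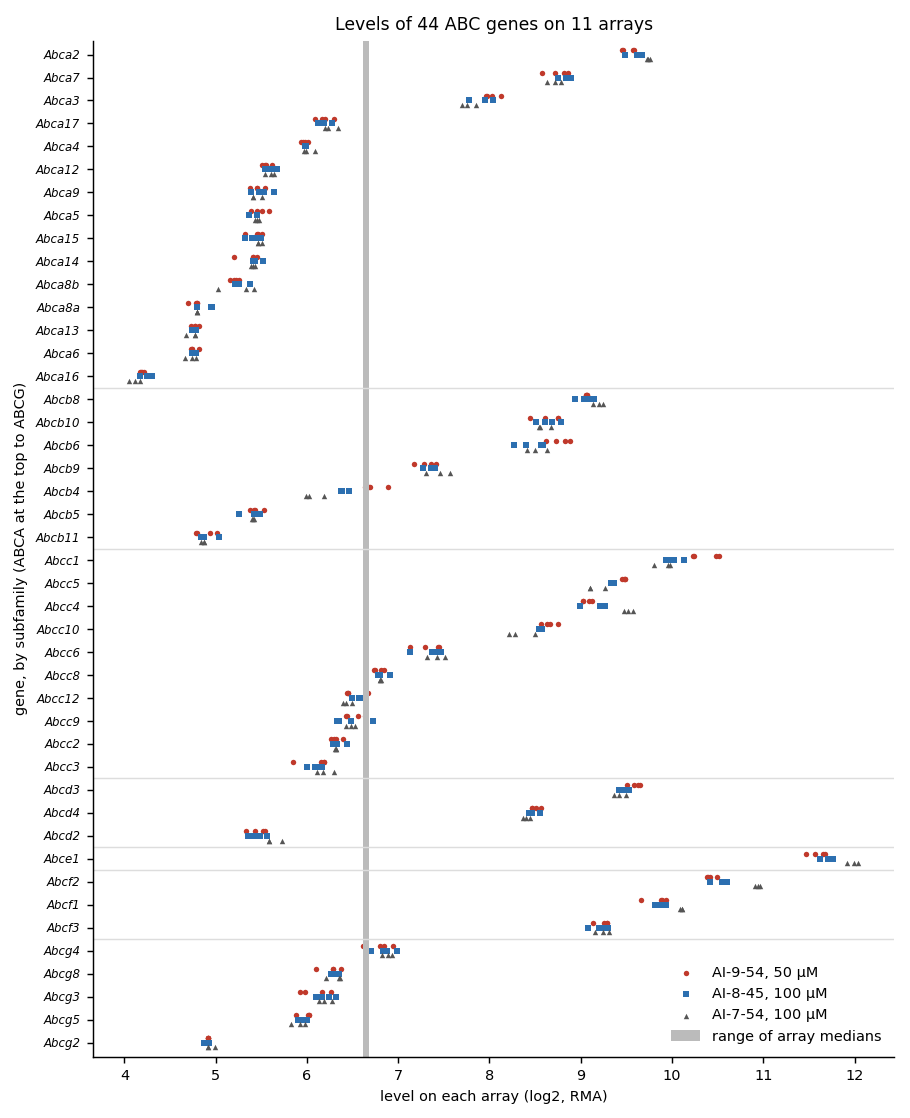
Level of each of the 44 ABC genes on each of the 11 arrays (x axis, log2 RMA value), by gene and subfamily (y axis). Points are arrays coloured by compound, and the grey band is the range of array medians, 6.61 to 6.68. Abce1 and Abcf2 have the brightest probe sets and Abca16 the dimmest, and within most rows the 3 groups lie on top of each other.

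A brighter probe set does not mean more RNA, because probe sets of different genes differ in sensitivity and length. With that limit, 19 of the 44 genes were above their array's median on all 11 arrays, 22 on none and 3 on some. The plot of levels by gene shows them by subfamily. All 3 ABCF genes, Abce1, 2 of the 3 ABCD, 6 of the 10 ABCC, 4 of the 7 ABCB, 3 of the 15 ABCA and 0 of the 5 ABCG genes were above the median on every array. The probe sets with the highest mean were those of Abce1 at 11.74, Abcf2 at 10.60 and Abcc1 at 10.12. Those with the lowest were Abca16 at 4.18, Abca6 at 4.75 and Abca13 at 4.76. Well-known tissue transporters were among the dim sets. Their means were 4.92 for Abcg2, a drug and urate exporter, 4.88 for Abcb11, the bile salt export pump, and 5.99 for Abca4, a transporter of the retina. Background was not measured for single probe sets, so a dim set is a low signal and not an absence.

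Between AI-8-45 and AI-7-54, 2 of the 44 genes were called higher and 3 lower, against 2.13% and 3.53% of all genes. Between AI-9-54 and AI-7-54, 6 were called higher and 5 lower, against 6.87% and 7.29% of all genes. Between AI-9-54 and AI-8-45, 2 were called higher and 0 lower, against 0.708% and 0.6% of all genes. The numbers of ABC genes whose groups did not overlap were 9 for AI-8-45 against AI-7-54 (15.9% of all genes), 14 for AI-9-54 against AI-7-54 (23.2% of all genes) and 4 for AI-9-54 against AI-8-45 (6.67% of all genes). The median difference over the 44 genes was 0.01, -0.01 and -0.01 in these comparisons, with genes on both sides of 0.

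The calls lay among the brighter probe sets. Of the 11 genes called in any comparison, 10 were above the array median on all arrays, and the other was Abcb4. Among the 19 genes that bright, 4 were called between AI-8-45 and AI-7-54 and 10 between AI-9-54 and AI-7-54. Of the 11440 such genes in the whole table, 10.5% and 25.3% were called in those comparisons. All 11 were called between AI-9-54 and AI-7-54, 5 of them also between AI-8-45 and AI-7-54, and Abcb4 in all 3 comparisons. The differences were small: Abcb4 was the only gene of the 44 to differ by 1.5-fold or more, and it did so between AI-9-54 and AI-7-54.

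**Figure D2:**
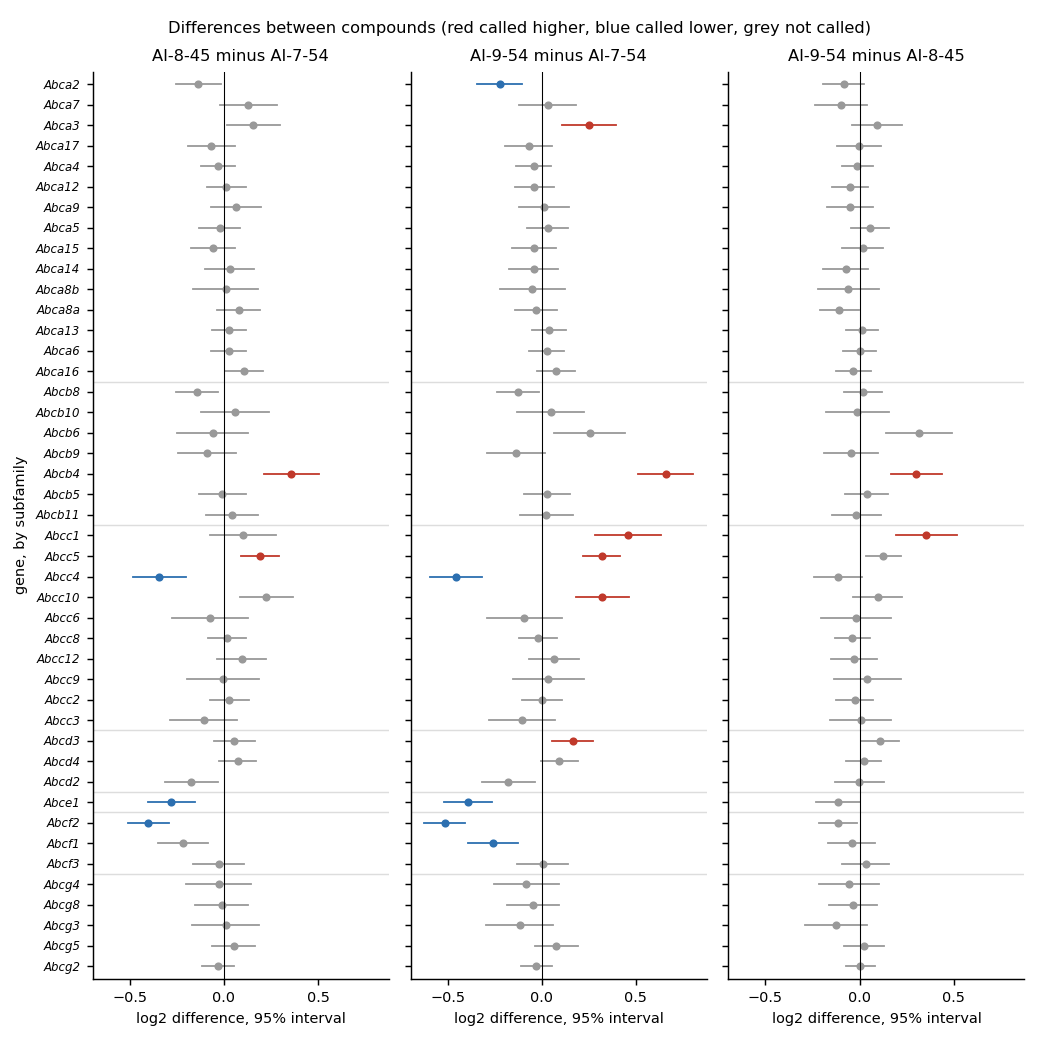
Log2 difference of each ABC gene in each comparison (x axis) with its 95% interval from limma, by gene and subfamily (y axis). Red marks genes called higher, blue genes called lower and grey genes not called; Abcb4 at 0.66 and Abcf2 at -0.52 lie farthest from 0, both between AI-9-54 and AI-7-54.

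The start regions of 5 of the called genes are printed because these genes have the largest differences in each direction or hold a searched motif. They come from RefSeq, build GRCm38.p6, on the strand of the gene, 5′ to 3′, from 250 bases before to 50 bases after a transcript start. Capitals mark the letters TGACNNNGC, the core of the antioxidant response element, on either strand.
Abcb4 promoter, chr5:8893471-8893770, plus strand: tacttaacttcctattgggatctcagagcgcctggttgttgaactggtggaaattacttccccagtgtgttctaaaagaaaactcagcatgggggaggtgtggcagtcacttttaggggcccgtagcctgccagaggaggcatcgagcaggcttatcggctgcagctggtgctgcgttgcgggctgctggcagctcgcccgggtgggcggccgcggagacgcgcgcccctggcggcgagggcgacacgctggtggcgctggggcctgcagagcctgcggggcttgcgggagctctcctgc
Abcf2 promoter, chr5:24577418-24577717, minus strand: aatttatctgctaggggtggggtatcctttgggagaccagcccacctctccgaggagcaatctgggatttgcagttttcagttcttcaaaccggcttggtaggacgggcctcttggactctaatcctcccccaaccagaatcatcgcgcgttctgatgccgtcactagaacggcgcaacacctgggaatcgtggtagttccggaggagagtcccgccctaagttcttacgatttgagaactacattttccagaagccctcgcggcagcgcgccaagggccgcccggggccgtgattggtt
Abce1 promoter, chr8:79711691-79711990, minus strand: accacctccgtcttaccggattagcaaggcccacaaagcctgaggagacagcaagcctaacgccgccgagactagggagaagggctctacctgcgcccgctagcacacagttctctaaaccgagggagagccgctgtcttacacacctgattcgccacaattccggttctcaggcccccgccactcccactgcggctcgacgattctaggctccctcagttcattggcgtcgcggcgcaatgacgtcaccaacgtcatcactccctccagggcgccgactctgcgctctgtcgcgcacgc
Abcc4 promoter, chr14:118706170-118706469, minus strand: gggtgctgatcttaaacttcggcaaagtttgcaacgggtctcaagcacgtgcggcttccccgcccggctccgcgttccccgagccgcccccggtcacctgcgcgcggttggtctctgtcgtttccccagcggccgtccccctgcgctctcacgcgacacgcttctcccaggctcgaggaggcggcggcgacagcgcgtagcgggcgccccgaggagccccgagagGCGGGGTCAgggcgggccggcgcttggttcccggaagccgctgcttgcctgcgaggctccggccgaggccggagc
Abcc10 promoter, chr17:46327974-46328273, minus strand: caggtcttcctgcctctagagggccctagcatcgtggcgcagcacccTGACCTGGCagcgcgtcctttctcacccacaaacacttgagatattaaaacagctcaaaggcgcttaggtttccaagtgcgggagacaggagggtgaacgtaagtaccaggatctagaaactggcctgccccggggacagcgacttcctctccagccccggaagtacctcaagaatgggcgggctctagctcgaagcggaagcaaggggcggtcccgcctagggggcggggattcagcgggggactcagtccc

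RefSeq windows were found for 35 of the 44 genes, 42 windows in all, and for 10 of the 11 called genes, Abcc1 being the gene without one. The antioxidant core was present on either strand in 6 of the 42 windows (14.3%), against 12.4% of 32851 mouse windows. Among called genes it occurred in Abcc4 and Abcc10, in both windows of each, and among the others in Abcc2 and Abca8b. The letters TGTGGT, a RUNX motif, were present on either strand in 7 of the 42 windows (16.7%), against 16.8% of all windows, and in 0 of the 10 called genes with a window. No ABC window held both motifs. The shares among ABC windows were close to those of all windows, and a match describes letters only, not a bound site.

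Abcb4, the phosphatidylcholine transporter of the bile canaliculus, had the largest difference of the 44 genes. Its levels were 6.69, 6.89, 6.68 and 6.64 with AI-9-54, 6.46, 6.38, 6.39 and 6.47 with AI-8-45, and 6.02, 6.19 and 5.98 with AI-7-54. Each AI-9-54 array was above each AI-8-45 array, and each of those was above each AI-7-54 array. The group means were 6.72 ± 0.11 with AI-9-54 (SD, n = 4), 6.42 ± 0.05 with AI-8-45 (n = 4) and 6.07 ± 0.11 with AI-7-54 (n = 3). Abcb4 was 1.58-fold higher with AI-9-54 than with AI-7-54, a log2 difference of 0.66 ± 0.07 (SE) with a limma adjusted p of 4.78e-05. It was 1.28-fold higher with AI-8-45 than with AI-7-54 (log2 difference 0.36, adjusted p 0.00842), a call that held in 20 of 23 alternative analyses and was lost without AI-7-54 replicate 4 (0.0509). Between AI-9-54 and AI-8-45 the difference was 0.30 (adjusted p 0.0382), and that call held in 8 of 23 alternatives.

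Abcb4 stands beside Abcb1b on the chromosome, and its neighbours were looked at after these values had been seen. In the order of protein-coding genes in the RefSeq table, Slc25a40, Rundc3b, Abcb1a, Abcb1b, Abcb4, Crot, Tmem243 and Dmtf1 form a run of 8 measured genes that were all called higher between AI-9-54 and AI-7-54. Their log2 differences in that comparison were 0.81 for Slc25a40, 1.32 for Rundc3b, 1.00 for Abcb1a, 2.13 for Abcb1b, 0.66 for Abcb4, 0.52 for Crot, 0.46 for Tmem243 and 0.15 for Dmtf1. The run ended on both sides at genes that were not called, Dbf4 at 0.07 (adjusted p 0.472) and Elapor2 at -0.02 (adjusted p 0.918). The differences were largest at Abcb1b and smaller with each gene on the Abcb4 side of it. Of the 8 genes, 4 were called higher between AI-8-45 and AI-7-54 (2.13% of all genes) and 5 between AI-9-54 and AI-8-45 (0.708% of all genes). The run was picked by its calls between AI-9-54 and AI-7-54. Both other comparisons share arrays with that one, so their counts are not independent of the choice. Around the other 10 called ABC genes, a window of 6 genes on each side held 0 or 1 gene called higher between AI-9-54 and AI-7-54. In those windows 5 of the 107 measured neighbours were called higher and 12 lower, against 6.87% and 7.29% of all genes. Whether the Abcb4 probe set also reads RNA of its relatives next to it was not tested.

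**Figure D3:**
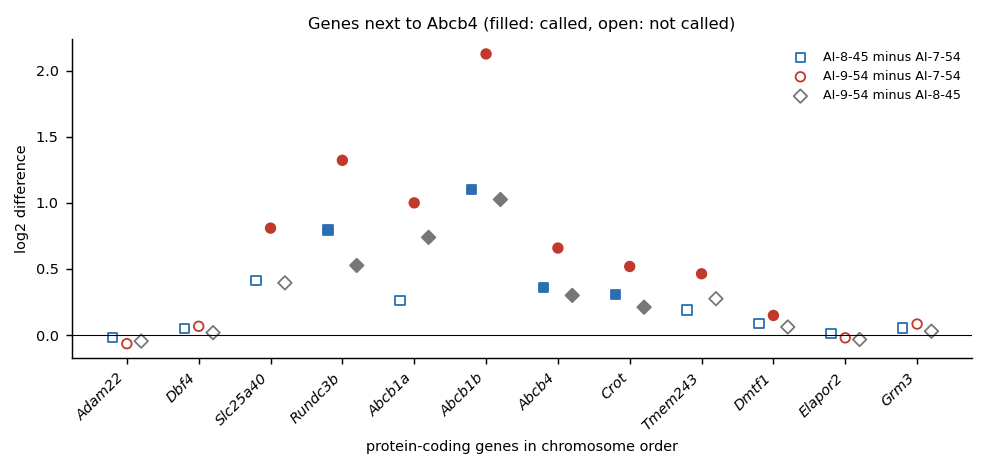
Log2 difference (y axis) of the measured protein-coding genes around Abcb4 in chromosome order (x axis), for each comparison of compounds. Filled symbols are called genes and open symbols are not; between AI-9-54 and AI-7-54 the 8 genes Slc25a40 to Dmtf1 are filled, with the highest value of 2.13 at Abcb1b.

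The ABCC subfamily held 4 of the 11 called genes, and they went in both directions. Abcc1 (MRP1), which exports glutathione conjugates and leukotriene C4, had levels of 10.24, 10.23, 10.49 and 10.52 with AI-9-54, 9.97, 9.93, 10.13 and 10.02 with AI-8-45, and 9.97, 9.81 and 9.96 with AI-7-54. The AI-9-54 arrays were above all others, and the AI-8-45 and AI-7-54 arrays overlapped. Abcc1 was 1.37-fold higher with AI-9-54 than with AI-7-54 (log2 difference 0.46 ± 0.08 SE, limma adjusted p 0.0023). Against AI-8-45 its log2 difference was 0.35 (adjusted p 0.0412), a call that held in 12 of 24 alternatives. AI-8-45 differed from AI-7-54 by 0.10, with a 95% interval of -0.07 to 0.28. Within replicates 1 and 2 the difference of AI-9-54 from AI-7-54 was 0.26, and within replicates 3 and 4 it was 0.62.

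Abcc4 (MRP4), an exporter of cyclic nucleotides and prostaglandins, lay the other way. Its levels were 9.02, 9.03, 9.12 and 9.09 with AI-9-54, 9.26, 9.21, 8.99 and 9.24 with AI-8-45, and 9.58, 9.51 and 9.47 with AI-7-54. The AI-7-54 arrays were above all others, and AI-8-45 replicate 3 was the lowest of the 11. Abcc4 was 1.37-fold lower with AI-9-54 than with AI-7-54 (log2 difference -0.46 ± 0.06 SE, limma adjusted p 0.000475), a call that held in all 24 alternatives. With AI-8-45 it was 1.27-fold lower than with AI-7-54 (log2 difference -0.34, adjusted p 0.00819), and without AI-8-45 replicate 3 the difference was -0.28. AI-9-54 and AI-8-45 differed by -0.11 (adjusted p 0.51).

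Abcc5 (MRP5), which also exports cyclic nucleotides, and Abcc10 (MRP7), which carries lipophilic drugs such as taxanes, were called higher. Abcc5 had levels of 9.45, 9.48, 9.47 and 9.49 with AI-9-54, 9.35, 9.33, 9.35 and 9.36 with AI-8-45, and 9.26, 9.10 and 9.10 with AI-7-54. Its 3 groups did not overlap, and the AI-9-54 and AI-8-45 arrays were each tightly grouped. The log2 difference of Abcc5 was 0.32 ± 0.05 (SE) between AI-9-54 and AI-7-54 (limma adjusted p 0.000551). It was 0.19 between AI-8-45 and AI-7-54 (adjusted p 0.0275), a call that held in 13 of 24 alternatives and was lost without AI-7-54 replicate 3 (0.143), without replicate 4 (0.13) or without any 1 of the AI-8-45 arrays (0.052 to 0.0627). AI-9-54 differed from AI-8-45 by 0.13 (adjusted p 0.225).

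Abcc10 had levels of 8.63, 8.75, 8.66 and 8.56 with AI-9-54, 8.57, 8.54, 8.54 and 8.57 with AI-8-45, and 8.50, 8.28 and 8.21 with AI-7-54. The AI-7-54 arrays were below all others, with replicate 1 the nearest to them. The log2 difference was 0.32 ± 0.06 (SE) between AI-9-54 and AI-7-54 (limma adjusted p 0.00517) and 0.22 between AI-8-45 and AI-7-54 (adjusted p 0.0662, not called). With the replicate set (1 and 2, or 3 and 4) as a factor, the difference between AI-8-45 and AI-7-54 passed (0.0408), and its adjusted p ranged from 0.0102 to 0.857 over the alternatives. The other 6 ABCC genes were not called in any comparison. They are Abcc2 and Abcc3, which export organic anions in liver and gut, Abcc6, Abcc12, and Abcc8 and Abcc9, the sulfonylurea receptor subunits of ATP-sensitive potassium channels. The channel partners Kcnj8 and Kcnj11 were not called either.

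**Figure D4:**
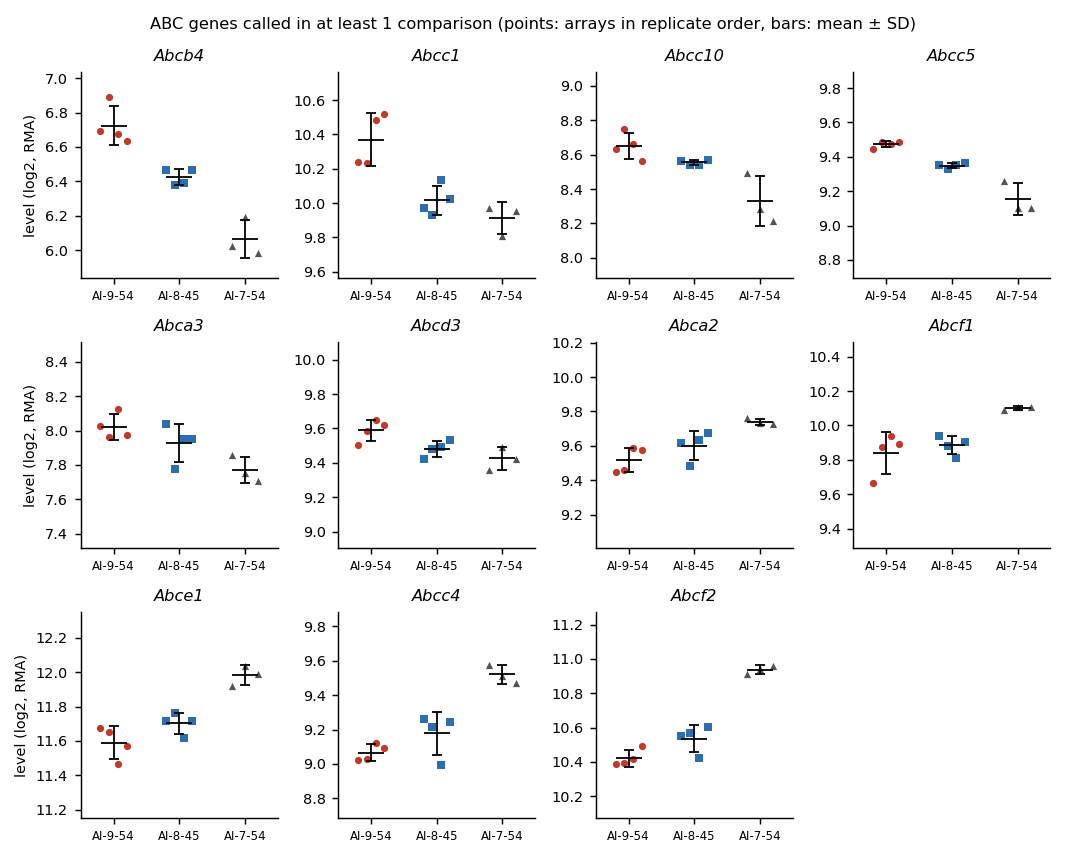
Level (y axis, log2 RMA value) of the 11 ABC genes called in at least 1 comparison, by compound (x axis). Points are arrays in replicate order and bars the mean ± SD; Abcb4 descends from AI-9-54 to AI-7-54 without overlap, and Abcf2 has the opposite order with all AI-7-54 arrays at 10.91 or above.

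Of the 4 soluble ABC genes, all with bright probe sets, 3 were called lower with AI-9-54 than with AI-7-54, where 7.29% of all genes were called lower and 25.3% of the brighter genes were called either way. Abcf2, a cytosolic ATPase without membrane spans, had the lowest adjusted p of the 44 genes in that comparison. Its levels were 10.39, 10.39, 10.42 and 10.49 with AI-9-54, 10.55, 10.57, 10.42 and 10.61 with AI-8-45, and 10.91, 10.94 and 10.96 with AI-7-54. The AI-7-54 arrays lay above all 8 others, and the AI-9-54 and AI-8-45 arrays overlapped. Abcf2 was 1.43-fold lower with AI-9-54 than with AI-7-54 (log2 difference -0.52 ± 0.05 SE, limma adjusted p 3.26e-05), in all 24 alternatives. It was 1.32-fold lower with AI-8-45 than with AI-7-54 (log2 difference -0.40, adjusted p 0.000671), in 23 of 24.

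Abce1, the ATPase that splits ribosomes after termination, had levels of 11.67, 11.65, 11.46 and 11.57 with AI-9-54, 11.72, 11.76, 11.62 and 11.71 with AI-8-45, and 11.92, 12.04 and 11.99 with AI-7-54. Again the AI-7-54 arrays were above all others. The log2 difference was -0.39 ± 0.06 (SE) between AI-9-54 and AI-7-54 (limma adjusted p 0.000695). It was -0.28 between AI-8-45 and AI-7-54 (adjusted p 0.0149), and this call was lost without AI-7-54 replicate 3 (0.0823) or replicate 4 (0.062). Within replicates 1 and 2 the difference of AI-9-54 from AI-7-54 was -0.26, and within replicates 3 and 4 it was -0.50.

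Abcf1, which binds the initiation factor eIF2, had levels of 9.66, 9.88, 9.94 and 9.89 with AI-9-54, 9.94, 9.88, 9.81 and 9.91 with AI-8-45, and 10.09, 10.11 and 10.11 with AI-7-54. The AI-7-54 arrays were above all others, and AI-9-54 replicate 1 was the lowest. The log2 difference of Abcf1 was -0.26 ± 0.06 (SE) between AI-9-54 and AI-7-54 (limma adjusted p 0.0129, and 0.0505 without AI-7-54 replicate 3). AI-8-45 differed from AI-7-54 by -0.22 (adjusted p 0.0617, not called). Abcf3, the remaining soluble member, differed by 0.01 between AI-9-54 and AI-7-54, with a 95% interval of -0.13 to 0.14. Between AI-9-54 and AI-7-54, 7.29% of all genes were called lower, 6.87% higher and 25.3% of the brighter genes either way. Of 11 measured genes of ribosome recycling and the response to stalled ribosomes, with a median level of 9.79, 2 fell and 0 rose there. They were Gspt1, which encodes the termination factor eRF3a, at -0.38 (adjusted p 7.4e-05), and Denr, which acts in recycling and reinitiation, at -0.24 (adjusted p 0.00493). Gspt1 was also called lower with AI-8-45 than with AI-7-54, at -0.26. The median difference of the 11 genes was -0.12 between AI-9-54 and AI-7-54, against -0.0014 over all genes.

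Among the 15 ABCA genes, Abca2 and Abca3 were called, both between AI-9-54 and AI-7-54. Abca2, a transporter of endosomes and lysosomes linked to sterol traffic, had levels of 9.45, 9.46, 9.58 and 9.57 with AI-9-54, 9.62, 9.48, 9.63 and 9.68 with AI-8-45, and 9.76, 9.73 and 9.72 with AI-7-54. The AI-7-54 arrays were the highest, and the other groups overlapped. The log2 difference was -0.22 ± 0.06 (SE) between AI-9-54 and AI-7-54 (limma adjusted p 0.0168), a call lost when AI-7-54 replicate 1 (0.057), 3 (0.0538) or 4 (0.0505) was left out. For AI-8-45 against AI-7-54 the difference of Abca2 was -0.14 (adjusted p 0.209).

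Abca3, the lamellar body phospholipid transporter of lung, had levels of 8.03, 7.96, 8.13 and 7.97 with AI-9-54, 8.04, 7.78, 7.95 and 7.95 with AI-8-45, and 7.85, 7.75 and 7.70 with AI-7-54. The AI-9-54 arrays were above the AI-7-54 arrays, and the AI-8-45 arrays overlapped with both. The log2 difference was 0.25 ± 0.07 (SE) between AI-9-54 and AI-7-54 (limma adjusted p 0.0221), a call lost without AI-7-54 replicate 3 (0.0813) or 4 (0.105) and without AI-9-54 replicate 3 (0.0582). The other 13 ABCA genes were not called in any comparison: Abca4, Abca5, Abca6, Abca7, Abca8a, Abca8b, Abca9, Abca12, Abca13, Abca14, Abca15, Abca16 and Abca17. Of these, Abca7, known for phospholipid transport and phagocytosis, was above the array median on all arrays, and it differed by 0.03 between AI-9-54 and AI-7-54, with a 95% interval of -0.12 to 0.18.

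The transporters of organelles differed little. Abcd3 (PMP70), which imports branched-chain and other acyl-CoAs into peroxisomes, had levels of 9.50, 9.58, 9.65 and 9.62 with AI-9-54, 9.42, 9.48, 9.49 and 9.53 with AI-8-45, and 9.36, 9.49 and 9.42 with AI-7-54. The AI-9-54 arrays were just above the AI-7-54 arrays. The log2 difference was 0.16 ± 0.05 (SE, limma adjusted p 0.0469), and it passed in 10 of 24 alternatives, with adjusted p from 0.00934 to 0.242. Its relative Abcd2 had differences of -0.17 between AI-8-45 and AI-7-54 (adjusted p 0.171) and -0.18 between AI-9-54 and AI-7-54 (adjusted p 0.1). The AI-7-54 arrays of Abcd2 lay above all others, but its probe set was below the median on every array. Of 17 measured genes of peroxisomal import and fatty acid oxidation, 2 rose and 1 fell with AI-9-54 against AI-7-54, where 6.87% of all genes were called higher and 7.29% lower. That is near the share of all genes. They were Crot at 0.52, which is a neighbour of Abcb4, the oxidase gene Acox3 at 0.21 (adjusted p 0.0271) and the import gene Pex14 at -0.24 (adjusted p 0.0328).

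Abcd4, which exports vitamin B12 from lysosomes together with Lmbrd1, differed by 0.09 between AI-9-54 and AI-7-54 (adjusted p 0.233), without overlap of the groups. Lmbrd1 had levels of 10.44, 10.28, 10.37 and 10.36 with AI-9-54, 10.29, 10.23, 10.37 and 10.29 with AI-8-45, and 10.04, 10.07 and 10.14 with AI-7-54. Every AI-7-54 array was below every other array. Lmbrd1 was called higher with AI-9-54 than with AI-7-54 (log2 difference 0.28, limma adjusted p 0.0026) and with AI-8-45 than with AI-7-54 (0.21, adjusted p 0.0274). Between AI-9-54 and AI-7-54, 6.87% of all genes were called higher, 7.29% lower and 25.3% of the brighter genes either way. Of the 9 vitamin B12 genes, 2 rose and 4 fell in that comparison. The lower ones included Mmachc (-0.31), which processes incoming B12, and the B12-dependent mutase gene Mmut (-0.22).

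None of the 3 mitochondrial ABC genes was called. Abcb6, a porphyrin transporter, had levels of 8.73, 8.88, 8.83 and 8.62 with AI-9-54, 8.58, 8.56, 8.26 and 8.40 with AI-8-45, and 8.63, 8.49 and 8.41 with AI-7-54. The AI-9-54 arrays were above all AI-8-45 arrays and overlapped with AI-7-54. The log2 difference of Abcb6 was 0.31 between AI-9-54 and AI-8-45 (limma adjusted p 0.0943) and 0.25 between AI-9-54 and AI-7-54 (adjusted p 0.0766, and 0.0301 with the replicate set as a factor). Between AI-9-54 and AI-8-45 it passed with the replicate number as a block (0.0345) or the replicate set as a factor (0.0128), and its adjusted p ranged from 0.0128 to 0.359 over the alternatives. For AI-9-54 against AI-7-54 that range was 0.0301 to 0.337.

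Abcb8, a transporter of the inner membrane, differed by -0.13 between AI-9-54 and AI-7-54 (adjusted p 0.143), with no overlap of those groups. Abcb10, which serves haem synthesis, differed by 0.05 in the same comparison, with a 95% interval of -0.13 to 0.23. Of 19 measured genes of iron-sulfur cluster and haem synthesis, 3 rose and 5 fell with AI-9-54 against AI-7-54, where 6.87% of all genes were called higher, 7.29% lower and 25.3% of the brighter genes either way. The lower genes included the cluster scaffold Iscu at -0.30, the mitochondrial iron importer Slc25a37 at -0.35 and Glrx5, a glutaredoxin that hands on clusters, at -0.42. Those 3 had the lowest adjusted p of the list, with 0.000684 for Iscu, 0.000852 for Slc25a37 and 0.00149 for Glrx5. Between AI-8-45 and AI-7-54, 2 rose and 3 fell. In that comparison 2.13% of all genes were called higher, 3.53% lower and 10.5% of the brighter genes either way. Between AI-9-54 and AI-8-45 Slc25a37 alone was called, lower by -0.29, where 0.708% of all genes were called higher and 0.6% lower. The list moved in both directions, with a median of -0.09 between AI-9-54 and AI-7-54.

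The other ABCB genes, Abcb5, Abcb11 and the lysosomal peptide transporter Abcb9, and all 5 ABCG genes, Abcg2, Abcg3, Abcg4, Abcg5 and Abcg8, were not called in any comparison. Over the 39 genes not called between AI-8-45 and AI-7-54, the 95% intervals of the log2 difference lay between -0.35 and 0.37. Over the 33 not called between AI-9-54 and AI-7-54 they lay between -0.32 and 0.44. Over the 42 not called between AI-9-54 and AI-8-45 they lay between -0.29 and 0.49. The number of arrays limits this precision.

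ABC proteins under other symbols differed mostly little. Tap1, a subunit of the peptide transporter that loads MHC class I, was called higher with AI-9-54 than with AI-7-54 (log2 difference 0.34, limma adjusted p 0.00554), with levels of 10.17, 10.30, 10.22 and 10.09 with AI-9-54, 10.20, 10.14, 10.05 and 10.01 with AI-8-45, and 9.99, 9.79 and 9.80 with AI-7-54. Its partner Tap2 differed by -0.09 (adjusted p 0.399), and the chloride channel gene Cftr by 0.07 (adjusted p 0.647). Of 8 measured genes of peptide loading, all with bright probe sets, H2-K1 rose and Calr fell in the same comparison. There 6.87% of all genes were called higher, 7.29% lower and 25.3% of the brighter genes either way. The list was near the share of the brighter genes. Of the 4 ABC genes outside the set, Abcb1b differed by 2.13, Abcb1a by 1.00, Abcg1 by 0.62 and Abca1 by 0.16 between AI-9-54 and AI-7-54. All were called but Abca1 (adjusted p 0.102), against 0.66 for Abcb4.

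Glutathione, whose conjugates Abcc1 exports, was followed through 16 measured genes of its synthesis and conjugation. With AI-9-54 against AI-7-54, 4 rose and 2 fell, where 6.87% of all genes were called higher and 7.29% lower. In that comparison 25.3% of the brighter genes were called either way. With AI-9-54 against AI-8-45, 3 rose and 0 fell, where 0.708% of all genes were called higher and 0.6% lower. Slc7a11, the cystine importer, had levels of 10.62, 10.62, 10.19 and 10.09 with AI-9-54, 9.28, 9.29, 7.57 and 7.59 with AI-8-45, and 8.88, 7.53 and 7.64 with AI-7-54. All AI-9-54 arrays were higher than the rest, and in every group replicates 1 and 2, or 1 alone, were above replicates 3 and 4. Its log2 difference was 2.36 between AI-9-54 and AI-7-54 (limma adjusted p 0.00383). Gclc and Gclm, the subunits of the rate-limiting ligase, were higher by 0.56 and 0.32 in that comparison (adjusted p 0.000387 and 0.00429). Gsto1 and Gstp1, both glutathione transferases, were lower, by -0.51 and -0.48. Slc7a11, Gclc and Gclm were also the 3 genes called higher with AI-9-54 than with AI-8-45.

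**Figure D5:**
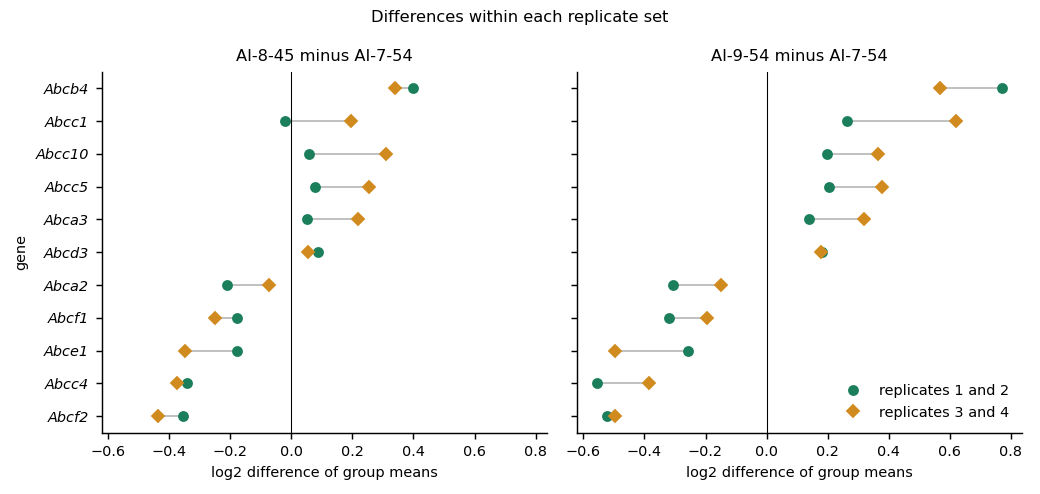
Log2 difference of group means within replicates 1 and 2 (circles) and within replicates 3 and 4 (diamonds) for the 11 called ABC genes (y axis), for AI-8-45 and for AI-9-54 against AI-7-54 (x axes). In replicates 1 and 2 the AI-7-54 group is 1 array. Between AI-9-54 and AI-7-54 the values run from 0.77 and 0.57 for Abcb4 to -0.52 and -0.50 for Abcf2. The groups of each gene do not overlap there, so both sets must share a sign.

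Arrays of replicates 1 and 2 tended to deviate from their group means together, as did those of replicates 3 and 4. The correlations within a set ranged from -0.02 to 0.49, so some pairs did not move together. Each called gene was also read within each set, as the plot of differences by replicate set shows. Between AI-9-54 and AI-7-54 the groups did not overlap for any of the 11 genes. The sign there had to be the same in both sets, so only the sizes are informative. Abcb4 differed by 0.77 in the first set and 0.57 in the second, Abcf2 by -0.52 and -0.50, and Abcc4 by -0.55 and -0.39. Abcc1, which was not called between AI-8-45 and AI-7-54, had -0.02 there in the first set and 0.20 in the second. In that comparison Abcc10 differed by 0.06 in the first set and 0.31 in the second. The AI-7-54 group has a single array in the first set, so those values rest on it.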

How the data were processed

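The data are 1-colour Affymetrix whole-transcript arrays of total RNA from 11 samples. Per the labels' protocols, the RNeasy kit gave the RNA, the Ambion WT kit amplified it, and the cDNA was fragmented and biotin-labelled. Per the submitters' processing notes the tools were RMA and Partek 6.6, and the deposited values, between 3.23 and 13.8, were taken as log2 from that range. Genome build and background levels are not given in the sources used here. Every value column belonged to a mapped sample.

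Of 41345 probe sets, 23521 had 1 symbol in the platform annotation, 1814 several and 16010 none here. Symbols were updated by Entrez identifier (23328 found, among them all 44 ABC genes), and each gene took its probe set with the highest mean. No filter on dim genes was applied. A group-means model was fitted with limma 3.58.1 in R 4.3.3 on all 11 arrays (8 residual degrees of freedom, prior 4.14), with two-sided tests and Benjamini-Hochberg adjustment over 22180 genes. The method was tested on simulated data. Promoter windows, counts and figures were made in Python 3.11.15 with matplotlib 3.10.9.

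The rule for named genes took every called ABC gene in full, the 3 brightest and 3 dimmest, those without group overlap, and up to 3 called genes with the lowest adjusted p from each pathway list. The ABC genes and the lists were chosen with earlier results of these data known. Planned counts of protein motifs were not run, as no protein table was used here. The alternatives were 13 other settings and each of the 11 arrays left out in turn.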

Additional observations from a re-analysis of the deposited data

Results flagged for a closer look

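In 9 of the 88 groups of 4 arrays, 1 array lay apart from the other 3 by Dixon's ratio, the gap to the nearest array over the group's range, past its 95% critical value. Chance gives about 1 in 20 such groups, and none of the 9 belongs to a called gene. In AI-9-54 groups, the ratio was 0.898 for Abca6 (replicate 1, higher), 0.892 for Abca8a (replicate 2, lower) and 0.942 for Abcc12 (replicate 1, higher). It was 0.874 for Abcc3 and 0.879 for Abcg5, both with replicate 3 the lowest. In AI-8-45 groups, it was 0.848 for Abca4 (replicate 3, lower), 0.846 for Abcb11 (replicate 2, higher) and 0.857 for Abcc8 (replicate 3, higher). For Abca5 it was 1, since replicate 4 was at 5.37 and the other 3 arrays held the same value, 5.45. The gaps themselves were small: Abcc12 was at 6.67 on AI-9-54 replicate 1 and at 6.44 to 6.45 on the others. Abcc3 was at 5.85 on AI-9-54 replicate 3 and at 6.15 to 6.19 on the others.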

How the results depend on the processing

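With 3 or 4 arrays a group, differences under about 1.5-fold decide most calls, so the counts move with the settings. No difference that was called changed sign under any alternative. For every call the groups compared did not overlap, so fits that only leave out arrays could not change its sign. Between AI-8-45 and AI-7-54, 5 ABC genes were called, against 0 with only replicates 1 and 2, 2 with only replicates 3 and 4, and 2 to 6 when 1 array was left out (2 without AI-7-54 replicate 4 and 3 without replicate 3). Between AI-9-54 and AI-7-54, 11 were called, against 3 with only replicates 1 and 2 and 8 to 11 with 1 array left out. Between AI-9-54 and AI-8-45, 2 were called, against 1 with equal array medians, with only genes of a mean above the median (which drops Abcb4) or with array weights. There, 0 were called with only the groups compared, only replicates 1 and 2 or only replicates 3 and 4, and 0 to 1 with any 1 array left out. Fewer arrays enter those fits, and the part of other causes was not tested.

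With the replicate number as a block, the counts were 4 between AI-8-45 and AI-7-54, 11 between AI-9-54 and AI-7-54 and 3 between AI-9-54 and AI-8-45; the block lost Abcc5 from the first and added Abcb6 to the last. With the replicate set as a factor the counts were 6, 12 and 3, with Abcc10 added to the first and Abcb6 to the others. Deviations from the group means of same-numbered arrays correlated at -0.02 to 0.45 over 10 pairs, so the numbers were not taken as pairing. Other arrays of the same set (1 and 2, or 3 and 4) correlated at 0.04 to 0.49 and arrays of different sets at -0.48 to 0.01. Deviations within a group cancel out, so positive values for some pairs force negative ones for others.

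The run of genes around Abcb4, and its repeats, were chosen after seeing the data. The run was picked as genes called higher between AI-9-54 and AI-7-54, so its count of 8 there was set by that choice. In the alternatives that test all its genes the count there stayed within 1.5 times of 8. Those fits reuse the same arrays and are no independent support for the run. The filter on a mean above the median drops Abcb4 and was not counted. Between AI-8-45 and AI-7-54 the count was 4, against 7 with the replicate set as a factor and 0 with only replicates 1 and 2. Between AI-9-54 and AI-8-45 it was 5, against 3 with equal array medians, only the groups compared or only replicates 3 and 4, 0 with only replicates 1 and 2, and 3 to 5 with 1 array left out.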
